A study of Mus musculus with 7 samples.

Results

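The genes described here are Mcm7, whose gene carries the microRNA cluster miR-106b/93/25 in an intron, the other 5 subunits of the MCM helicase (Mcm2, Mcm3, Mcm4, Mcm5 and Mcm6), and Mir17hg, the host transcript of the related miR-17 to miR-92a cluster. They were chosen by name, and their regions by position: a peak counted for a gene when it overlapped the 500 nt on either side of any of its annotated transcription start sites (TSSs), and for Mcm7 also when it overlapped the gene body. All 7 of 7 genes had such a peak in every condition, as did 21923 of 21938 protein-coding genes. NG had 23 of these peaks in a list of 1036304, HG+NT 23 in a list of 846027, and HG+miR-93 21 in a list of 900109.

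DNase-Seq was done on nuclei of an immortalised mouse podocyte line, the epithelial cell of the glomerular filter, 36 h after growth arrest in medium with little serum. NG cells were kept in 5 mM glucose and served as the control, with no transfection named in their labels. HG+NT cells were kept in 25 mM glucose and transfected with 50 nM of a nontargeting mimic, and HG+miR-93 cells were kept in the same glucose and transfected with 50 nM of a miR-93 mimic. Each condition had 2 replicates, deposited as 1 peak list per condition, beside 1 genomic DNA input. NG against HG+NT, called the glucose step below, asks what high glucose does to open chromatin. HG+NT against HG+miR-93, called the mimic step, asks whether the mimic reverses it. Because NG cells were not transfected as far as the labels say, glucose and transfection cannot be told apart in the glucose step.

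Mcm2 to Mcm7 encode the ring-shaped helicase that is loaded on origins of replication in G1 phase and unwinds DNA in S phase. Their genes are classic targets of E2F transcription factors, whose activating members are low in arrested cells, and differentiated podocytes divide little. Transcription from the Mcm7 promoter also makes the precursor of miR-106b, miR-93 and miR-25, so an endogenous source of miR-93 sits behind this promoter, apart from the synthetic mimic.

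The mature microRNAs of both clusters are shown first because their seeds tie the clusters together. They are from RefSeq (GRCm38.p6), which held all 9 that were looked for; capitals mark the seed, bases 2 to 8. From Mcm7, on the minus strand of chromosome 5, come the following, with miR-93-5p at chr5:138165574-138165596.
miR-106b-5p: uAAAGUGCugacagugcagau
miR-93-5p: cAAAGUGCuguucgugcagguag
miR-25-3p: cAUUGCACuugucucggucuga
From Mir17hg, on the plus strand of chromosome 14, come these.
miR-17-5p: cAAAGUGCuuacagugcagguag
miR-20a-5p: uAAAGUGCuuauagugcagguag
miR-18a-5p: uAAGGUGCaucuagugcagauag
miR-19a-3p: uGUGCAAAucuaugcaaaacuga
miR-19b-3p: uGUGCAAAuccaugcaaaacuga
miR-92a-3p: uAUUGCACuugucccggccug
The seed AAAGUGC of miR-93-5p is shared by 4 of the 9 and occurs in both hosts. Over the whole length, seed included, miR-93-5p has the same base as miR-17-5p at 19 of 23 positions and as miR-106b-5p at 16 of 21, and outside the seed at 12 of 16 and 9 of 14. The seed AUUGCAC joins miR-25-3p to miR-92a-3p, and miR-19a-3p and miR-19b-3p share GUGCAAA.

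Some promoters of the family hold E2F-type letters, searched as TTTCGCGC, TTTGGCGC, TTTCCCGC and TTTGCCGC on both strands of the RefSeq windows that run from 250 bases before to 50 bases after a start. RefSeq had 7 such windows for 6 of the 7 genes, with no entry for Mcm4. The Mir17hg window begins at 115044140, inside the gene and past the TSS used for its peaks, so it says nothing of that promoter. At least 1 of the 4 words was present at Mcm7, Mcm3, Mcm5 and Mcm6, in 4 of the 7 windows, against 2.26% of all 32851 promoter windows. Each word holds the pair CG, and that share was not matched for CG content. The windows with a word held 24 CG pairs at Mcm7, 8 at Mcm3, 25 at Mcm5 and 21 at Mcm6. The median over all windows was 7. TTTCGCGC alone, found in 0.323% of windows, was at Mcm7, Mcm5 and Mcm6, and TTTGGCGC, found in 0.514%, was at Mcm3, Mcm5 and Mcm6. At Mcm5 and Mcm6 the TTTCGCGC and TTTGGCGC matches overlap on opposite strands. The CCAAT word, in 37.4% of windows, was at every MCM gene with an entry. For Mcm7 the 30 bases around the matches at chr5:138171849-138171878 and chr5:138172030-138172059 (minus strand) are printed, with the E2F-type word in capitals, the word at 138172030 on the opposite strand. The 250 bases upstream of Mcm5 (chr8:75109259-75109508, plus strand) and Mcm6 (chr1:128359706-128359955, minus strand) have E2F-type and CCAAT words in capitals.
Mcm7 downstream match: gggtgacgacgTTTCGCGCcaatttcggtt
Mcm7 upstream match: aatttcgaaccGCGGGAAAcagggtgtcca
Mcm5 upstream: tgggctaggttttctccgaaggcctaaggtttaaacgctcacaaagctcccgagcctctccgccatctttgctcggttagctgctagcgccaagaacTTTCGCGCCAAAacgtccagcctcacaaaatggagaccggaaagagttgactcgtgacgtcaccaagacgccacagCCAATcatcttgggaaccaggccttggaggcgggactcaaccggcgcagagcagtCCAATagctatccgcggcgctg
Mcm6 upstream: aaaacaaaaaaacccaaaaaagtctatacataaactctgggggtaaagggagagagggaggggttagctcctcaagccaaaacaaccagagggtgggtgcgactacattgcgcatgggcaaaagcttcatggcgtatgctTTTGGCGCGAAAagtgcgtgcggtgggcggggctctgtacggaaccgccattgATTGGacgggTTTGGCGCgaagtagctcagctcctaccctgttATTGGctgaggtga
A match is a description of letters, and binding was not measured. At Mcm7, upstream and downstream refer to the RefSeq start. All 30 bases of each Mcm7 window lie in exons of protein-coding Mcm7 transcripts, past the annotated coding start at 138172422. Those at 138172030 also lie in an exon of Ap4m1, which runs the opposite way.

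The lists give, for each peak, a fold over the input at its summit and a −log10 p from a Poisson model. From these the number of DNA fragments at the summit was solved, on the assumption that MACS2's usual formulas apply, since the authors give their settings by citation and not by value. Pileup below means those fragments scaled to the input's depth. Each has a 95% interval (exact Poisson), which holds counting error and nothing else. The fold is the pileup plus 1 over the input's local mean plus 1. The NG list rested on the least sequence, HG+NT on 1.72 times and HG+miR-93 on 2.30 times its depth, and with 1 list per condition the spread between replicates could not be seen. A start-site peak below is the one with the highest pileup among peaks with a summit within 500 nt of the TSS of a protein-coding transcript. Of 21938 protein-coding genes, 12273 had a start-site peak in all 3 lists, with a median pileup of 8.04 under NG, 6.23 under HG+NT and 5.83 under HG+miR-93.

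Mcm7 had a peak of high pileup over its promoter in all 3 conditions, though in HG+miR-93 its fold was 1.56, with a −log10 p of 1.08 that 14.4% of the list exceeded. The gene spans chr5:138164583-138172422 on the minus strand and has 10 annotated TSSs, 7 of them of protein-coding transcripts. In NG its start-site pileup was 14.7 (95% interval 10.1 to 20.7, from 33 fragments). HG+NT gave 10.4 (7.42 to 14.1, from 40 fragments) and HG+miR-93 gave 9.91 (7.38 to 13.0, from 51). The NG value was the highest, and the 3 intervals overlap. Among the start-site peaks of all genes these stood at the percentiles 96.5, 85.2 and 90.8. The peak covered nearly the same bases each time, chr5:138170354-138172777 in NG and chr5:138170329-138172744 in HG+miR-93, which takes in all 7 coding starts. Its summit lay in an intron in NG, 185 nt past the nearest TSS, and in untranslated exons in the other lists, at −120 nt in HG+NT and 44 nt past another TSS in HG+miR-93. The HG+NT summit was 74 nt from the downstream E2F-type match and 15 nt from a CCAAT word, while the HG+miR-93 summit was 666 nt from the nearest E2F-type match found and 114 nt from a CCAAT word. The NG summit was 233 nt from an E2F-type match and 228 nt from a CCAAT word. The peak is shared with Ap4m1, a subunit gene of the AP-4 adaptor complex that starts inside it and runs the opposite way, so the genes' promoters cannot be told apart here.

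Along the rest of the Mcm7 gene the pileups were low beside the promoter peak, but most were at or above the median of all peaks in their list, 2.68 under NG, 2.60 under HG+NT and 2.33 under HG+miR-93. NG listed 5 peaks that overlapped the gene body, HG+NT listed 7 and HG+miR-93 listed 5. They covered 82.4%, 93.0% and 86.0% of its 7840 bp in that order. The share covered was not computed for other genes, so this coverage is not shown to be particular to Mcm7. The lists hold 846027 to 1036304 peaks, with median widths of 1401 to 1790 bp. The promoter peak had 3 times the pileup of the second highest peak of the gene under NG, 2.67 times under HG+NT and 1.82 times under HG+miR-93. None of these peaks had a −log10 q of 2 or more, and in every one it was 0.

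Peaks lay over the stretch with the microRNA genes in every condition, at folds from 0.699 to 1.22 over the input, but in HG+NT 82 of the 88 bases of Mir93, among them mature miR-93-5p, lay in no peak. Mir106b, Mir93 and Mir25 lie 6000, 6208 and 6414 nt downstream of the coding start at 138171818, and the annotation also places the start of a retained-intron transcript among them, at 138165716. In NG 1 peak covered all 3 microRNA genes, with its summit inside Mir93, a pileup of 4.91 (2.45 to 8.79) and a fold of 0.739. In HG+NT there were 2 peaks of 15 fragments each. One covered Mir25 and the last 6 bases of Mir93, with its summit in Mir25, a pileup of 3.90 (2.18 to 6.42) and a fold of 1.22. The other covered Mir106b at the same pileup but a fold of 0.699. In HG+miR-93 1 peak again covered all 3 genes, with a pileup of 5.44 (3.62 to 7.86), a fold of 0.920 and a summit at −70 nt from the middle of Mir93. The intervals of the pileups at these summits overlap between all 3 conditions. A fold below 1 means fewer fragments than the local mean of the input, which was 7 at the NG summit and 6 at the HG+miR-93 summit, against a median of 2 over all peaks of each list. Pileup is known at summits only, and neither HG+NT nor HG+miR-93 had a summit inside Mir93. The endogenous miR-93 gene could therefore not be compared between cells with and without the mimic except through these neighbouring summits.

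**Figure D1:**
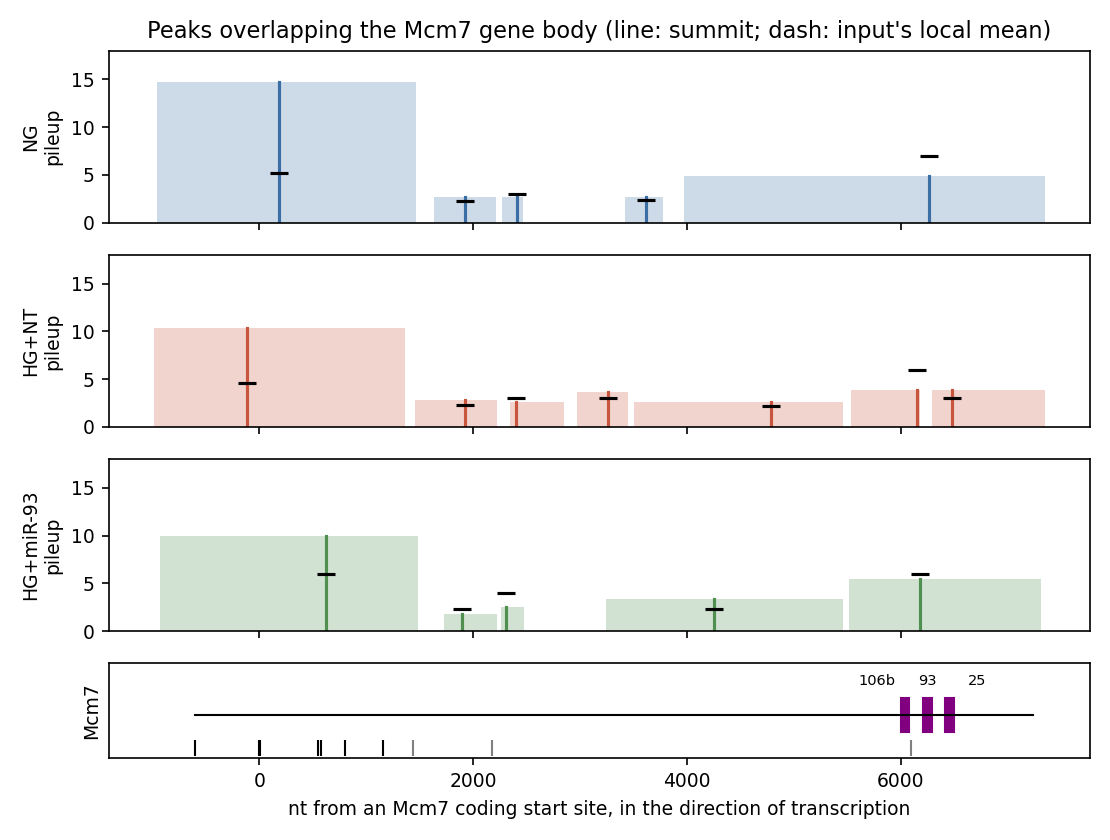
Peaks overlapping the Mcm7 gene body in each list. The x axis is the distance in nt from the coding start at 138171818 in the direction of transcription and the y axis the pileup at the summit in fragments at the input's depth; shaded boxes span the peaks, vertical lines mark summits, black dashes the input's local mean, and the bottom track shows the 3 microRNA genes and the TSSs (black for coding transcripts, grey for others). The promoter peak stands at 14.7, 10.4 and 9.91, and over the cluster the dash lies above the summit in NG, in HG+miR-93 and for the HG+NT peak at Mir106b.

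Mcm4, which forms the catalytic core of the helicase with Mcm6 and Mcm7, had the highest pileup of the family in each list. NG gave 16.97 (12.0 to 23.3), HG+NT gave 16.1 (12.3 to 20.6) and HG+miR-93 gave 11.7 (8.90 to 15.0), at the percentiles 99.0, 97.1 and 95.6. The summits, at −248, −152 and −67 nt, lay upstream of the gene (chr16:15623897-15637400, minus strand), in the space shared with Prkdc, the DNA-dependent protein kinase gene that starts there on the other strand. Its NG peak had a −log10 p of 6.24 and stood at rank 134 of that list. In HG+miR-93 its −log10 p was 0.706, and 35.4% of the peaks in that list had a higher one.

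Mcm6, the other core subunit in this set, was close to the median gene. The start-site pileups were 7.59 (4.42 to 12.2) under NG, 5.97 (3.79 to 8.96) under HG+NT and 6.41 (4.41 to 9.01) under HG+miR-93, at the percentiles 46.4, 46.0 and 59.0. The NG and HG+NT summits were 1 nt apart, at −77 and −78 nt, and 7 and 6 nt from the TTTGGCGC word nearest to the start. The HG+miR-93 summit lay 6 nt past the start and 107 nt from that word. The intervals of the 3 pileups overlap.

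Mcm5, which with Mcm2 forms the gate through which DNA enters the ring, kept one of the higher ranks of the family. The NG pileup was 12.1 (7.95 to 17.5), that of HG+NT 10.4 (7.42 to 14.1) and that of HG+miR-93 9.33 (6.88 to 12.4), and the percentiles were 87.1, 85.2 and 88.4. Its folds were 3.84, 2.71 and 2.58. The summits lay at −28, −178 and −137 nt, upstream of the gene (chr8:75109569-75128439, plus strand). In the same order they were 177, 27 and 68 nt from an E2F-type match and 24, 43 and 2 nt from a CCAAT word. The peak was listed as 8233 bp wide in NG, 16671 bp in HG+NT and 20183 bp in HG+miR-93, where the median widths of all peaks were 1401, 1790 and 1664 bp, and the NG list, of the least depth, had 4 separate promoter peaks instead of 1. By fold, promoters of chromosome 8 as a whole had a median percentile of 53.2 under NG, 74.4 under HG+NT and 75.6 under HG+miR-93. By start-site pileup it was 65.7, 76.5 and 80.5, above the middle under NG too. With each fold divided by the median promoter fold of its chromosome, the change in the Mcm5 fold percentile went from −6.01 to −18.7 points in the glucose step and from −5.31 to −21.5 between NG and HG+miR-93.

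Mcm3 had the lowest start-site pileup in each list among MCM genes with a value, and Mcm2 was near the middle of all genes or above it. Mcm2, the subunit that also binds histones, had no summit within 500 nt of its coding start in NG, where the overlapping peak had its summit at −3572 nt. HG+NT gave a start-site pileup of 5.71 (3.58 to 8.65) and HG+miR-93 one of 7.19 (5.06 to 9.91), on a local input mean of 8 and 7, so the folds were 0.746 and 1.02. By pileup these stood at the percentiles 42.4 and 70.2, the latter above Mcm6. Mcm3 had pileups of 5.36 (2.77 to 9.36) under NG, 5.45 (3.38 to 8.34) under HG+NT and 4.08 (2.53 to 6.24) under HG+miR-93, at the percentiles 26.2, 38.8 and 19.0. The Mcm3 summits lay 48 nt from an E2F-type match in NG, 2 nt in HG+NT and 20 nt in HG+miR-93. For neither gene did the values differ beyond counting error.

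Mir17hg, a long noncoding RNA gene at chr14:115042879-115046727, had 1 promoter peak in each list, whose summit lay upstream of the TSS, at −1737 nt under NG, −621 nt under HG+NT and −2010 nt under HG+miR-93. The pileups were 6.25 (3.42 to 10.5), 4.93 (2.97 to 7.71) and 4.66 (2.99 to 6.94), and overlap. Thus neither host of the AAAGUGC microRNAs showed a pileup that differed between the conditions beyond counting error.

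**Figure D2:**
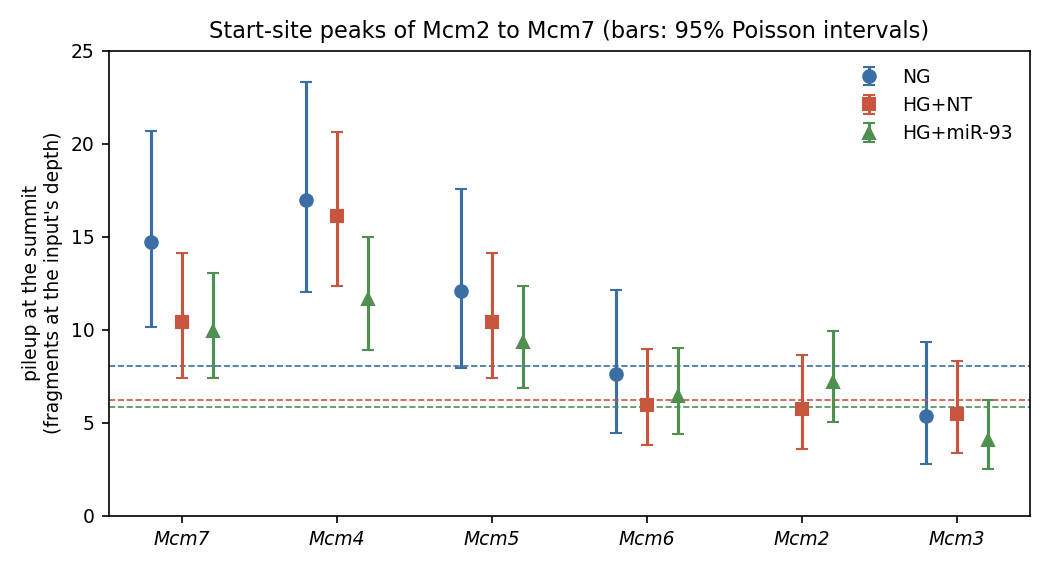
Start-site pileup of the 6 MCM genes in the 3 lists. The y axis is the pileup in fragments at the input's depth, bars are 95% Poisson intervals for counting error, and dashed lines are the median over 12273 genes in the list of the same colour. Mcm7, Mcm4 and Mcm5 lie above those medians in every list, and the intervals of a gene overlap between lists; Mcm2 has no such peak in NG.

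Set side by side, most MCM start-site pileups were lower in the other lists than in NG, and so were those of most genes. In the glucose step the ratio of HG+NT over NG was below 1 at 4 of the 5 MCM genes with a value, with a median of 0.861, against a median of 0.858 over all genes and 68.6% of genes below 1. For Mcm7 it was 0.705 (exact conditional 95% interval 0.433 to 1.15). In the mimic step the ratio of HG+miR-93 over HG+NT was below 1 at 4 of 6, with a median of 0.926 against 0.915 over all genes and 65.8% below 1. For Mcm7 it was 0.954 (0.618 to 1.48), for Mcm5 0.898 (0.578 to 1.40) and for Mcm4 0.724 (0.499 to 1.05). Genes with high start-site pileups, the 2116 with a mean percentile of at least 80, had a median ratio of 0.810 in the mimic step, so Mcm4 stood below and Mcm7 and Mcm5 above it. In the glucose step the same genes had a median of 0.987, and Mcm7, Mcm5 at 0.861 and Mcm4 at 0.949 all stood below it. From NG to HG+miR-93 all 5 MCM ratios were below 1, with a median of 0.761 against 0.791 and 77.7% of genes below 1. The comparisons share lists, so they are not independent.

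No MCM gene had Poisson intervals of the start-site pileup that lay apart in any of the 3 comparisons. In the glucose step 0 of 5 were higher and 0 lower, where 0.375% and 0.627% of all genes were. In the mimic step 0 of 6 were higher and 0 lower, against 0.0733% and 0.652%, and from NG to HG+miR-93 0 of 5 were higher and 0 lower, against 0.106% and 1.75%. With so few genes apart anywhere, a count of 0 among so few is near the background. For Mcm7 the interval of the glucose-step ratio runs from 0.433 to 1.15, so ratios in that range are not told apart by counting at this depth.

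The same promoters were also ranked by fold, taking for each gene the highest fold among all peaks that overlap any of its promoters, as a percentile among 21923 protein-coding genes. Mcm7 stood at 82.9, 66.4 and 33.7 in the order NG, HG+NT, HG+miR-93, on folds of 2.54, 2.03 and 1.56. Mcm4 stood at 98.7, 86.0 and 15.9, with folds of 3.74, 2.44 and 1.27. Mcm5 stood at 99.0, 93.0 and 93.7. With folds summed its change from NG was −33.8 points to HG+NT and −33.9 to HG+miR-93. That sum took in 4 promoter peaks in NG and 1 in each other list, so it depends on how the region was split into peaks. The remaining MCM genes stood higher in the later lists. Mcm2 stood at 27.9, 34.2 and 49.3, Mcm3 at 59.1, 61.0 and 74.8, and Mcm6 at 36.9, 47.8 and 56.1. All of these steps but that of Mcm2 between NG and HG+miR-93 turned sign under some alternative. For Mcm2 and Mcm3 in every list, and for Mcm6 in HG+NT and HG+miR-93, the highest fold came from a peak with its summit away from the main coding start, inside the gene or upstream of it. Mir17hg stood at 40.3, 69.8 and 24.3.

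Against a fixed size of 20 points, few members moved in the glucose step, where 1 of 7 was higher, Mir17hg by 29.4 points, against 23.8% of all genes, and 0 of 7 were lower, against 23.6%. In the mimic step 0 of 7 were higher, against 19.1%, and 3 of 7 were lower, against 19.2%: Mcm4 changed by −70.1 points, Mir17hg by −45.4 and Mcm7 by −32.6. By pileup the Mir17hg change was −4.94 points and with summed folds −17.9, neither past 20. From NG to HG+miR-93 1 of 7 was higher, Mcm2 by 21.4 points, against 24.4%. In that comparison 2 of 7 were lower, Mcm4 by −82.9 and Mcm7 by −49.2 points, against 24.3%. The Mcm2 change fell below 20 in some settings. It was 1.78 with summits within 500 nt of a TSS, 5.49 by pileup and 15.9 with folds over the chromosome's median. In the remaining settings that measured it, it ran from 22.1 to 31.1. Over Mcm2 to Mcm7 the median change was −2.06, 4.50 and 5.21 points in the 3 comparisons, against 0.00228, −0.0205 and −0.317 over all genes.

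Counting error alone is wide on this scale. When the fragments were set to the ends of their Poisson intervals, Mcm7 could have stood anywhere from 39.1 to 97.7 under NG, from 28.2 to 92.9 under HG+NT and from 12.5 to 66.3 under HG+miR-93. These ranges overlap. Mcm4 was the 1 member of 7 whose ranges lay apart: NG ran from 88.2 to 99.9 and HG+NT from 55.5 to 97.1, against 5.67 to 36.4 for HG+miR-93. Ranges lay apart in this way, with HG+miR-93 lower, for 1.25% of genes in the mimic step and for 1.38% from NG to HG+miR-93, and higher for 0.789% and 0.666%, with 0 members higher. In the glucose step the ranges of 0 of 7 members lay apart, against 0.698% of genes higher and 0.944% lower.

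**Figure D3:**
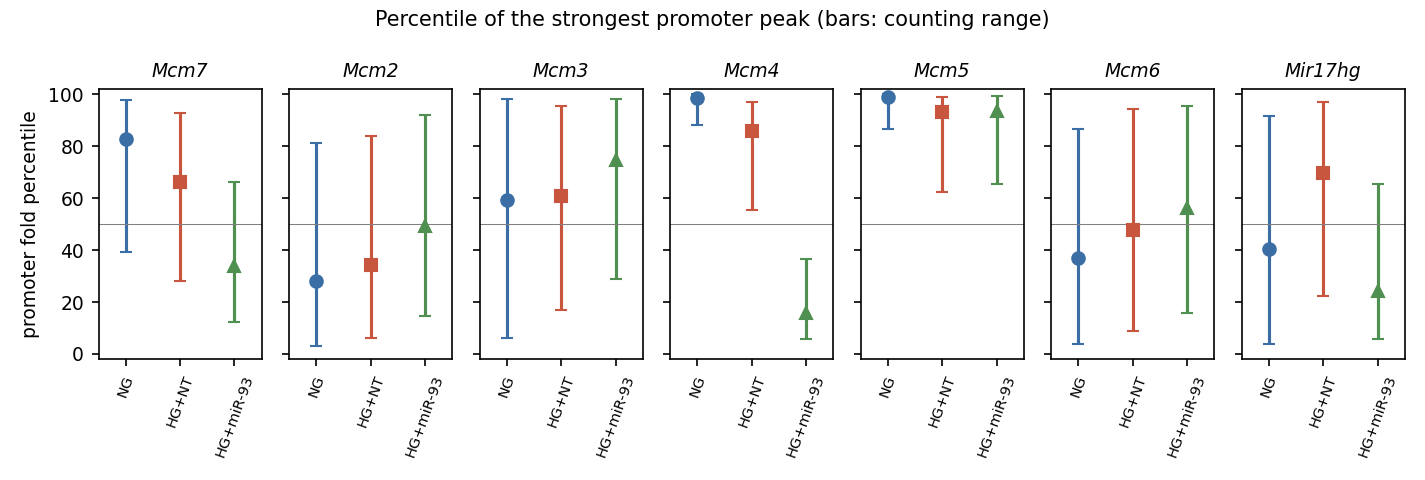
Percentile of each member's highest promoter fold among 21923 protein-coding genes in each list. Bars run between the percentiles at the ends of the Poisson interval of the fragments, with the input's local mean kept. Only for Mcm4 does the HG+miR-93 bar, 5.67 to 36.4, lie below the other bars.

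The low Mcm4 fold in HG+miR-93 has a measured companion in the input. The same input served all 3 lists, and its local mean is read at each list's summit: it was 3.8 at the NG summit, 6 at the HG+NT summit and 9 at the HG+miR-93 summit, positions at most 181 nt apart. Split on the log2 scale, the Mcm4 fold changed by −0.95 in the mimic step, of which −0.43 came from the fragments and −0.51 from the input's local mean. From NG to HG+miR-93 it changed by −1.56, with −0.51 from the fragments and −1.06 from the input. Ranked by pileup among overlapping peaks instead, Mcm4 changed by −1.03 and −2.20 points in these comparisons. The fragments alone differed within counting error.

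At Mcm7 the parts differed by comparison. Its fold changed by −0.32 in the glucose step, with −0.47 from the fragments and 0.15 from the input. In the mimic step it changed by −0.38, with −0.06 from the fragments and −0.32 from the input, at summits 741 nt apart. Between NG and HG+miR-93 it changed by −0.70, with −0.53 from the fragments and −0.18 from the input, so there, unlike at Mcm4, the fragments were the larger part. Ranked by pileup, the mimic-step change in percentile turned from −32.6 to 3.40 points. With the folds of all promoter peaks summed, 5 peaks in NG and 6 in HG+NT, the glucose-step change turned from −16.6 to 8.63 points. At Mcm6 the glucose step of −0.30 was all in the fragments, since the summit stayed in place. Over all genes the input part was the larger of these parts in 40.0% of genes in the glucose step and in 46.1% in the mimic step.

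**Figure D4:**
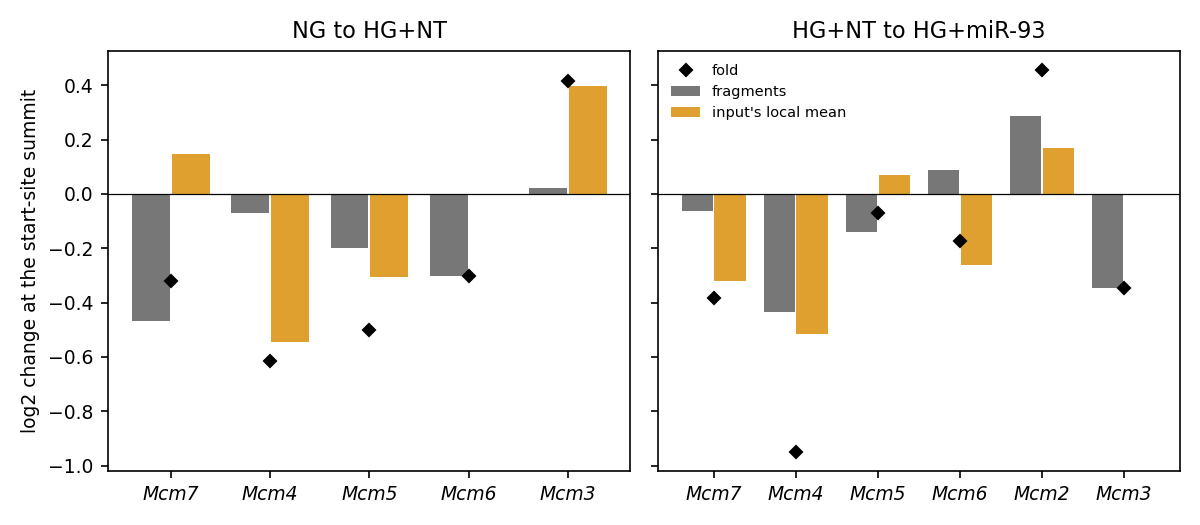
Change of the fold at the start-site summit of MCM genes, for the glucose step (NG to HG+NT) and the mimic step (HG+NT to HG+miR-93). The y axis is log2; grey bars are the part from the fragments, yellow bars the part from the input's local mean, and diamonds their sum, the change of the fold. The sum for Mcm4 in the mimic step is −0.95, and the yellow bar of −0.51 is longer than the grey bar of −0.43.

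Other genes of replication licensing and the helicase, a list of 26 that all had promoter peaks, give a setting for the MCM values. Their start-site pileups had median percentiles of 63.4 under NG, 66.1 under HG+NT and 61.9 under HG+miR-93, over the 24 with a value. The 5 MCM genes with a value in every list had medians of 87.1, 85.2 and 88.4. With Mcm2, which had a value in the last 2 lists only, these became 65.6 under HG+NT, close to the replication genes, and 79.3 under HG+miR-93. By fold, 5 of the 26 were higher by more than 20 points and 10 lower in the glucose step, against 23.8% and 23.6% of all genes. Of the same 26, 6 were higher and 4 lower in the mimic step, against 19.1% and 19.2%. The largest rises in the glucose step were Orc5, 51.2 points, and Orc4, 48.5 points, both subunits of the origin recognition complex. The largest falls were Gins1, a subunit of the GINS part of the helicase, with −66.8 points, and Mcm8, a relative that acts in homologous recombination, with −61.9. In the mimic step the largest rises were Gins3, 52.9 points, and Gins1, 31.8 points, and the largest falls Gmnn, which encodes the licensing inhibitor geminin, −60.1 points, and Orc6, −25.7 points. Among the start-site pileups of the 24 genes, 0 had intervals apart in the glucose step, against 0.375% of all genes higher and 0.627% lower, and 0 in the mimic step, against 0.0733% and 0.652%. Between NG and HG+miR-93 there were 0 higher and 2 lower of 24, against 0.106% and 1.75% of all genes. The 2 were Gins1, from 13.0 to 5.83, and Cdc45, from 12.5 to 5.44, the latter named after its values were seen. By fold percentile Gins1 was also lower over that comparison, at −34.9 points, but Cdc45 went the other way, from 12.1 to 42.2.

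The neighbours of the members differ from them in part. Ap4m1 has the same peak as Mcm7 in NG and HG+NT and so the same percentiles, 82.9 and 66.4. In HG+miR-93 its highest fold, 1.75 at the percentile 47.4, came from another peak. Prkdc likewise shared the Mcm4 peak in NG and HG+NT and stood at 26.9 in HG+miR-93. There its highest fold, 1.45, came from another peak, with 13 fragments and a summit 2321 nt past a start. The Mcm7 and Mcm4 peaks of HG+miR-93 still overlapped the Ap4m1 and Prkdc promoters, at lower folds of 1.56 and 1.27. Taf6, which encodes a subunit of the TFIID complex and lies beyond Ap4m1, stood at 36.7, 44.9 and 71.7.

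The protein-coding genes with percentiles closest to those of Mcm7 over the 3 lists were Vps37c, at a Euclidean distance of 0.752 points, Foxk2, at 3.08, and Asxl2, at 3.28. Vps37c stood at 82.5, 65.7 and 33.7. The 3 genes lie on chromosomes 19, 11 and 12.

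The label of podocyte was looked at through the promoter folds of 4 podocyte genes. Synpo, which encodes an actin-associated protein, stood at the percentiles 90.8, 96.1 and 86.4 in the order of the lists, and Nphs1, the nephrin gene of the slit diaphragm, at 23.2, 56.8 and 76.3. Podxl, which encodes a sialomucin of the podocyte surface, stood at 90.0, 61.0 and 71.7, and Cd2ap, which encodes an adaptor protein of the slit diaphragm, at 90.0, 79.5 and 28.95. The medians over the 4 were 90.0, 70.2 and 74.0. Pecam1 of endothelium, Lrp2 of proximal tubule and Ptprc of leukocytes had medians of 54.2, 64.1 and 50.3, below the podocyte median in each list. Whether these medians of few genes differ was not tested. Counting ranges were wide, from 0.889 to 87.1 for Nphs1 and from 3.07 to 96.7 for Ptprc in NG. Some folds came from summits far from a start, as at −2125 nt for Cd2ap in NG. Only 1 of the 4 podocyte genes and 2 of the 3 others had a start-site peak in every list. Single genes crossed over: Lrp2 in HG+NT, at 74.4, and Pecam1 in HG+miR-93, at 85.8, stood above the podocyte median. Some podocyte genes stood below the medians of the other cells: Nphs1 in NG, Nphs1 and Podxl in HG+NT, and Cd2ap in HG+miR-93.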

How the data were processed

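The authors called peaks of DNase-Seq reads (CASAVA 1.8.2, Bowtie, mm10) against the input with MACS2 and deposited 1 list for each condition, whose name calls it joint. The deposited fold is a ratio of summit fragments to the input's local mean, each plus 1; the deposited −log10 p and −log10 q are Poisson values. Fragments and local mean were solved from fold and p, with the mean on a grid of 0.02, uniquely for 99.8% of HG+miR-93 peaks and more elsewhere, and for all 63 member promoter peaks; the steps were tested on simulated data. TSSs are from GENCODE vM21, and overlap means 1 bp. Percentiles count ties as halfway. Members and lists were chosen with earlier results of these data known. Named genes are the members, their microRNAs and neighbours, cell markers, of 26 replication genes the 2 largest rises and falls in the glucose step and in the mimic step, and the 3 genes nearest to Mcm7. Cdc45 was named in addition, after its values were seen. Start-site peaks were also added after seeing the data. No test between conditions was run. The work used Python 3.11.15 with scipy 1.17.1 for intervals, pandas 2.3.3 and numpy 2.4.6 for ranks, and matplotlib 3.10.9 for plots.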

Additional observations from a re-analysis of the deposited data

How the results depend on the processing

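No paired analysis was possible because the files hold 1 list per condition and no values of single replicates. The Mcm7 percentile change in the mimic step, −32.6 points, turned to 3.40 when promoters were ranked by pileup and to 5.57 for start-site peaks ranked by pileup, a choice added after seeing the data; the other 6 alternatives kept its sign. Mir17hg in the glucose step turned from 29.4 to −6.23 points by pileup, and in the mimic step went from −45.4 to −4.94 by pileup and −17.9 with summed folds. The Mcm5 change ran from −33.8 to −1.20 points in the glucose step, where it was −6.01. Between NG and HG+miR-93 it ran from −33.9 to 1.31, where it was −5.31. Its lowest values came from summed folds, with 4 promoter peaks in NG and 1 in each other list. The Mcm7 change from NG to HG+miR-93 stayed below 0 under 8 of 8 alternatives, from −52.8 to −2.37 points, and that of Mcm4 under 8 of 8, from −81.5 to −2.20. The median over Mcm2 to Mcm7 changed sign under some alternatives in each comparison. It ran from −12.5 to 8.91 points in the glucose step and from −17.5 to 3.12 in the mimic step. Between NG and HG+miR-93 it ran from −14.0 to 5.58.

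The number of members past 20 points depended on the setting. In the glucose step it was 2 with promoters of 1000 nt, with summed folds and with folds over the chromosome's median, 3 with coding TSSs, and 0 by −log10 p, by pileup and for start-site peaks, against 1. In the mimic step it was 1 with summed folds, 2 by pileup, 4 by −log10 p and 5 with coding TSSs, against 3. It was 0 with the 50000 strongest peaks and for start-site peaks. The 2 by pileup were Mcm2, at 20.5 points, and Mcm3, at −21.0, neither of them among the 3. For NG against HG+miR-93 it was 2 with summits within 500 nt of a TSS, 4 with promoters of 1000 nt, by −log10 p and with summed folds, 5 with coding TSSs, 6 with folds over the chromosome's median, 1 with the 50000 strongest peaks, and 0 by pileup and for start-site peaks, against 3. The share of all genes past 20 points also depended on it. By pileup it was 19.3%, 10.8% and 21.1% in the 3 comparisons, for start-site peaks 22.5%, 15.1% and 24.9%, and with summed folds 20.7%, 17.6% and 20.9%, against 47.4%, 38.4% and 48.7%. Other settings gave 43.8% to 55.6%, 38.4% to 48.6% and 47.0% to 57.9%. The cause was not tested. Some settings measured fewer than 7 members: the 50000 strongest peaks 2 (Mcm3 and Mcm5), start-site peaks 5 (no Mcm2 or Mir17hg) and summits within 500 nt 6 (no Mir17hg).

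Over the Mcm7 gene body the 50000 strongest peaks gave 1 peak under NG, 1 under HG+NT and 0 under HG+miR-93, and a −log10 q of at least 2 gave 0 in each list. That limit left no member promoter with a value.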
